A study of Mus musculus with 24 samples.

Results

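Tumour necrosis factor (TNF) signalling through NF-kappaB and the genes that switch it off were followed in the epididymal white fat of mice fed lard or fish oil, with and without gut bacteria. A list of 10 gene names was given, and a gene was described by its annotated probe set with the highest mean over the 24 arrays. The 10 genes were Tnf, its receptors Tnfrsf1a and Tnfrsf1b, the NF-kappaB subunits Nfkb1, Nfkb2 and Relb, the inhibitors Nfkbia, Tnfaip3 and Tnip1, and Tnip3, a relative of Tnip1. A probe set with that gene name alone was found for 9 of the 10, exactly 1 for each, among 19938 genes tested. Nfkb1 was not analysed here.

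All 24 mice were wild-type C57Bl/6 males with 11 weeks of age in the labels. All ate high-fat, isocaloric diets with 45% of energy from fat for 11 weeks and were fasted for 4 h before the tissue was taken. The series design text starts the 11 weeks of feeding from the labelled age. The label is therefore not the age at tissue collection. The 4 groups of 6 mice each were conventional mice fed lard, germ-free mice fed lard, conventional mice fed menhaden fish oil and germ-free mice fed menhaden fish oil. A germ-free mouse is raised without microbes, and anything else that differs between conventional and germ-free mice, such as their housing, cannot be told apart from bacterial status. No group ate a low-fat diet. Each mouse gave 1 array. The error of a difference is therefore the spread over mice, and 6 arrays a group set its precision.

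TNF is a cytokine made mostly by macrophages, and it binds a receptor found on most cells, Tnfrsf1a, and a second one, Tnfrsf1b, that is most abundant on immune and endothelial cells. Receptor binding activates the IkappaB kinase, which marks the inhibitor Nfkbia for destruction and frees NF-kappaB dimers to enter the nucleus. Among the genes that NF-kappaB then switches on are its own brakes. They include Nfkbia, which takes the dimers back out of the nucleus, and the ubiquitin-editing enzyme Tnfaip3. Another is the ubiquitin-binding protein Tnip1, which works with Tnfaip3 or beside it. Tnip3 is a relative of Tnip1, and whether the mouse protein acts as a brake was not tested. In obesity, fat takes up macrophages, and TNF from them lowers the response of adipocytes to insulin.

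The promoters are shown because the inhibitors are known NF-kappaB targets. RefSeq windows of the 250 bases before the annotated transcript start, on GRCm38.p6, were given for 8 of the 10 genes, and 5 of these 8 held at least 1 match to the kappaB consensus, on either strand: Tnip3, Nfkbia, Tnip1, Tnfaip3 and Nfkb2. Over all genes with a window, 8.23% of 27025 genes held a match, and 7.25% of 32851 windows. The windows of Tnf, Tnfrsf1a and Tnfrsf1b held none, which says only that these letters are not in those 250 bases. In the sequences, capitals mark the match. The Tnip3 window, chr6:65590148-65590397 on the plus strand, held it 54 to 45 bases before the start. The Nfkbia window, chr12:55492648-55492897 on the minus strand, held it 29 to 20 bases before the start.
Tnip3: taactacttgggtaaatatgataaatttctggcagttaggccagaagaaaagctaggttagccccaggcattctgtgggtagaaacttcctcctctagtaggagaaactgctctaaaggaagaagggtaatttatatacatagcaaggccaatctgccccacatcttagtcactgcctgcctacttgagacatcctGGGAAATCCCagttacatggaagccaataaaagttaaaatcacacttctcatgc
Nfkbia: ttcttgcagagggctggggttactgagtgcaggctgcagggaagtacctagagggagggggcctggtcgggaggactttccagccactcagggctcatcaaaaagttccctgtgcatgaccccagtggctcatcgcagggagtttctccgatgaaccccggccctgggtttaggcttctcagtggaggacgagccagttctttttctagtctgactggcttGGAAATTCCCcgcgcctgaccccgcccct
Around the other matches, a shorter stretch is given: Tnip1 at chr11:54962975-54963010 on the minus strand, where 3 overlapping matches fill the 12 capitals, Tnfaip3 at chr10:19015411-19015434 on the minus strand, the closer to the start of 2 matches, and Nfkb2 at chr19:46304686-46304720 on the plus strand, where 2 overlapping matches fill the 11 capitals in the first of its 3 windows.
Tnip1: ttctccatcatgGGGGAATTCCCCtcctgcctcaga
Tnfaip3: ggaatttccatcGGAAATCCCCct
Nfkb2: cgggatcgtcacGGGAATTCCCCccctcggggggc
A match is a run of letters and not a measured binding site.

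The log2 signals had array medians between 7.09 and 7.20, and arrays of the same group correlated at 0.979 to 0.995 over all probe sets. The defining markers of the labelled tissue, those of mature adipocytes, had a list mean from 12.35 to 13.06 over the mice. Some mice stood apart. Lard-fed conventional mice 5 and 6 had 11.19 and 11.17 as the mean of the macrophage list, while mice 1 to 4 of the group had 10.28 to 10.61. Lard-fed germ-free mice 2, 4 and 5 had 6.47, 9.31 and 6.62 as the mean of the intestinal epithelium list, while mice 1, 3 and 6 of the group had 5.84 to 6.27. Mouse 4 lay far above the rest, and the step from 6.27 to 6.47 between kept and left-out mice was small. All 6 fish oil-fed germ-free mice had high liver markers, with a list mean of 8.87 ± 0.55, against 7.21 ± 0.55 in lard-fed conventional, 6.86 ± 0.50 in lard-fed germ-free and 7.04 ± 0.59 in fish oil-fed conventional mice (SD, n = 6 each). Results that rest on these mice are given with and without them.

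Most of the 9 genes were higher with lard than with fish oil in conventional mice, and in both bacterial states Tnip3, a relative of Tnip1, had the largest difference. In conventional mice, 8 of the 9 genes were higher with lard and 0 were lower, in a comparison in which limma called 31% of all 19938 genes at an adjusted p under 0.05, 15.4% as higher and 15.6% as lower. The mice of the diets did not overlap for 5 of the 9, as for 14.6% of all genes. In germ-free mice 5 of the 9 were higher and 1, Nfkbia, was lower, where 47.5% of all genes were called, 20.4% as higher and 27.1% as lower, and again 5 did not overlap (24.5% of all genes). Among lard-fed mice, 2 of the 9 were higher and 2 lower in conventional than in germ-free mice, where 16.3% of all genes were called, 8.77% as higher and 7.48% as lower. Among fish oil-fed mice 0 were higher and 3 lower, where 12.4% were called, 7.15% as higher and 5.21% as lower. The mice of the 2 bacterial states did not overlap for 0 of the 9 with lard (4.15% of all genes) and for 2 with fish oil, Tnfaip3 and Nfkbia (7.03% of all genes). The interaction is the conventional over germ-free difference in lard-fed mice minus the one in fish oil-fed mice. It passed for 1 of the 9, Nfkbia, as higher, and for 7.2% of all genes, 2.81% as higher and 4.38% as lower. In RNA from a whole fat depot, fewer cells of a type and less RNA per cell cannot be told apart.

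**Figure D1:**
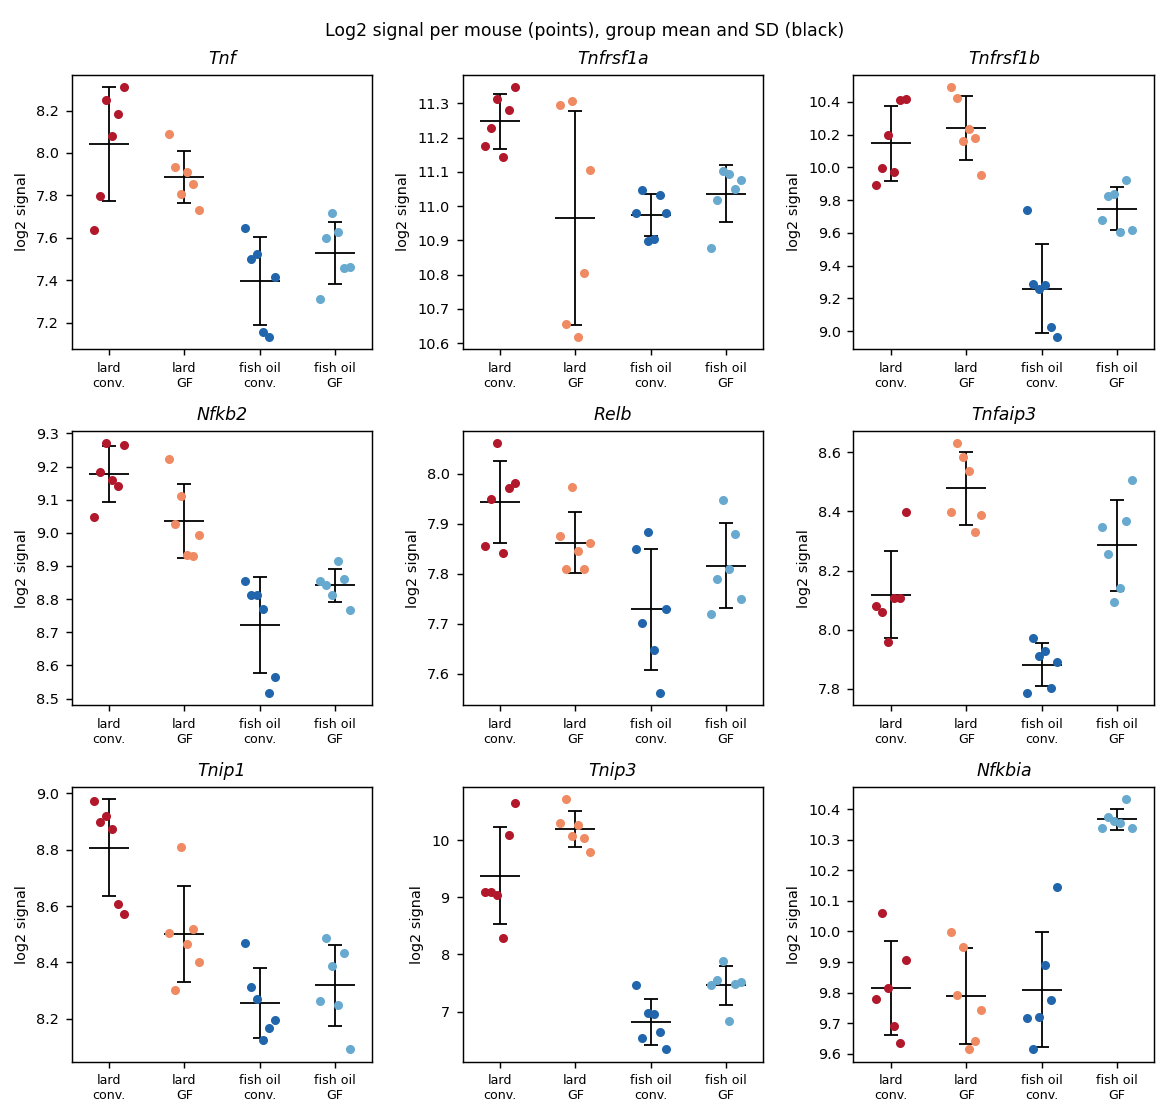
Log2 signal of the 9 genes in each of the 24 mice (points; vertical axes differ between panels), by group from left to right: lard conventional, lard germ-free (GF), fish oil conventional and fish oil germ-free. Black bars are the mean and SD of 6 mice; for Tnip3 all 12 lard-fed mice lie above all 12 fish oil-fed mice, and for Nfkbia the 6 fish oil-fed germ-free mice lie above all others.

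Tnf, the ligand, had the lowest, median and highest log2 signals of 7.64, 8.13 and 8.31 in lard-fed conventional mice and 7.73, 7.88 and 8.09 in lard-fed germ-free mice. In fish oil-fed mice these were 7.13, 7.46 and 7.65 in conventional and 7.31, 7.53 and 7.72 in germ-free animals. The lard-fed mice were high in both bacterial states; 1 lard-fed conventional mouse, mouse 1, lay within the range of fish oil-fed conventional mice, and among germ-free mice the diets did not overlap. Tnf was higher with lard by 0.65 ± 0.11 in conventional mice (SE, a fold change of 1.57, limma adjusted p = 5.4e-05) and by 0.36 ± 0.11 in germ-free mice (1.28-fold, adjusted p = 0.0089). Bacterial status made no difference that passed the test: conventional minus germ-free was 0.16 with lard (95% interval -0.07 to 0.38, adjusted p = 0.383) and -0.13 with fish oil (-0.35 to 0.09, adjusted p = 0.470). The means ran in the order lard conventional, lard germ-free, fish oil germ-free, fish oil conventional, and the ranges of neighbours overlapped except between the lard-fed and the fish oil-fed germ-free mice. With mice 2, 4 and 5 of the lard-fed germ-free group left out, the diet difference in germ-free mice was 0.35 and no longer passed (adjusted p = 0.0712).

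Tnfrsf1b, the TNF receptor of immune and endothelial cells, had the lowest, median and highest values of 9.89, 10.10 and 10.42 in conventional mice on lard and 9.95, 10.21 and 10.49 in germ-free mice on lard. Fish oil-fed conventional mice had 8.97, 9.27 and 9.74, and fish oil-fed germ-free mice 9.61, 9.75 and 9.92. Lard-fed mice lay above fish oil-fed mice without overlap in either bacterial state, and the fish oil-fed conventional mice were the lowest group, with mouse 1 highest among them. The receptor was higher with lard by 0.89 ± 0.12 in conventional mice (1.85-fold, limma adjusted p = 3.6e-06) and by 0.49 ± 0.12 in germ-free mice (1.41-fold, adjusted p = 0.0014). Among fish oil-fed mice it was lower in conventional than in germ-free animals, at -0.49 ± 0.12 (adjusted p = 0.0075), while with lard the same difference was -0.09 (95% interval -0.33 to 0.15, adjusted p = 0.673). With the macrophage list mean as a covariate the difference with fish oil was -0.13 (adjusted p = 0.283), and 10 of 19 macrophage markers were lower in the same comparison. The difference between these effects did not pass: the interaction was 0.40 ± 0.16 (adjusted p = 0.151). It passed without fish oil-fed conventional mouse 1 (0.49, adjusted p = 0.0437).

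Tnfrsf1a, the TNF receptor of most cells, varied least between the groups for its spread within them: 35.4% of its variance over the mice lay between the groups, against 47.1% for Relb and 68.2% to 89.3% for the other 7 genes. Its lowest, median and highest values were 11.14, 11.25 and 11.35 in conventional mice on lard and 10.62, 10.96 and 11.31 in germ-free mice on lard. With fish oil they were 10.90, 10.98 and 11.05 in conventional and 10.88, 11.06 and 11.10 in germ-free mice. Lard-fed conventional mice lay above both fish oil groups without overlap, and the lard-fed germ-free mice spread over the range of all others. It was higher with lard in conventional mice by 0.27 ± 0.09 (1.21-fold, limma adjusted p = 0.0291). Leaving out lard-fed conventional mouse 3, 5 or 6, or fish oil-fed conventional mouse 3 or 4, ended this call, with changes of 0.25 to 0.27 and adjusted p from 0.0525 to 0.0639. Without mice 5 and 6 together it was 0.24 (adjusted p = 0.122).

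In germ-free mice the Tnfrsf1a difference by diet was -0.07 (95% interval -0.27 to 0.12, limma adjusted p = 0.537), and with lard it was higher in conventional than in germ-free mice by 0.28 ± 0.09 (adjusted p = 0.0419). Both rest on lard-fed germ-free mice 2, 4 and 5, which had 10.66, 10.62 and 10.81, while mice 1, 3 and 6 of that group had 11.29, 11.31 and 11.11. The low mice are those with the highest intestinal epithelium list means; the part of that signal in the result was not tested. Without them, Tnfrsf1a was higher with lard in germ-free mice too, by 0.20 (adjusted p = 0.0336), while with all mice and the liver list mean as a covariate it was lower, at -0.40 (adjusted p = 0.0438). Without these 3 mice, its difference by bacterial status with lard was 0.01 (adjusted p = 0.972). That difference also lost its call without any one of these mice (0.21 to 0.25, adjusted p up to 0.129), and without lard-fed conventional mouse 2, 3, 5 or 6 (0.26 to 0.29, adjusted p from 0.0612 to 0.0900). With fish oil, conventional minus germ-free was -0.06 (-0.26 to 0.13, adjusted p = 0.735). The interaction was 0.35 ± 0.13 (adjusted p = 0.121) and passed without lard-fed germ-free mouse 1 (0.41, adjusted p = 0.0490) or 3 (0.41, adjusted p = 0.0439).

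Nfkb2, the precursor and subunit of the alternative NF-kappaB pathway, had lowest, median and highest values of 9.05, 9.17 and 9.27 in conventional mice on lard and 8.93, 9.01 and 9.22 in germ-free mice on lard. In fish oil-fed mice they were 8.52, 8.79 and 8.86 in conventional and 8.77, 8.85 and 8.91 in germ-free animals. In both bacterial states the diets did not overlap, and fish oil-fed conventional mice 5 and 6 were the lowest of all. Nfkb2 was higher with lard by 0.45 ± 0.06 in conventional mice (1.37-fold, limma adjusted p = 8.2e-06) and by 0.19 ± 0.06 in germ-free mice (1.14-fold, adjusted p = 0.0160). With the liver list mean as a covariate the difference in germ-free mice was -0.022 (adjusted p = 0.878), while that in conventional mice was 0.47 (adjusted p = 1.18e-06). Conventional minus germ-free was 0.14 with lard (95% interval 0.01 to 0.27, adjusted p = 0.145) and -0.12 with fish oil (-0.25 to 0.01, adjusted p = 0.242). With the liver covariate both passed, at 0.18 (adjusted p = 0.0340) and -0.32 (adjusted p = 0.0363). The interaction was 0.26 ± 0.09 (adjusted p = 0.0805). It was 0.50 with the liver covariate (adjusted p = 0.0103), and it passed without lard-fed conventional mouse 1 (0.29, adjusted p = 0.0481) or lard-fed germ-free mouse 1 (0.30, adjusted p = 0.0424).

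Relb, which pairs with the processed Nfkb2 protein, moved little. Its lowest, median and highest values were 7.84, 7.96 and 8.06 in conventional mice on lard and 7.81, 7.85 and 7.97 in germ-free mice on lard. With fish oil they were 7.56, 7.72 and 7.88 in conventional and 7.72, 7.80 and 7.95 in germ-free mice. All neighbouring groups overlapped. Relb was higher with lard in conventional mice by 0.21 ± 0.06 (1.16-fold, limma adjusted p = 0.0060), and in germ-free mice the difference was 0.05 (95% interval -0.07 to 0.17, adjusted p = 0.513). Conventional minus germ-free was 0.08 with lard (-0.04 to 0.20, adjusted p = 0.402) and -0.09 with fish oil (-0.21 to 0.03, adjusted p = 0.367), and the interaction was 0.17 ± 0.08 (adjusted p = 0.230).

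Tnip3, a relative of Tnip1 induced in macrophages by Toll-like receptor ligands, had the largest diet differences of the 9 genes. Its lowest, median and highest values were 8.29, 9.09 and 10.65 in conventional mice on lard and 9.79, 10.17 and 10.71 in germ-free mice on lard. They were 6.34, 6.80 and 7.47 in fish oil-fed conventional and 6.84, 7.51 and 7.88 in fish oil-fed germ-free mice. All 12 lard-fed mice lay above all 12 fish oil-fed mice, and within the lard-fed conventional group mice 5 and 6, at 10.09 and 10.65, lay among the germ-free values while the other 4 had 8.29 to 9.10. Tnip3 was higher with lard than with fish oil by 2.56 ± 0.27 in conventional mice (5.89-fold, limma adjusted p = 3.05e-07), rank 7 of all 19938 genes by the size of the change, and by 2.74 ± 0.27 in germ-free mice (6.67-fold, adjusted p = 1.32e-07), rank 9. Without lard-fed conventional mice 5 and 6 the first was 2.06 ± 0.21 (adjusted p = 5.63e-07), and the second was 2.60 ± 0.35 (adjusted p = 4.43e-05) when mice 2, 4 and 5 of the lard-fed germ-free group were left out.

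By bacterial status Tnip3 differed less than by diet. Conventional minus germ-free was -0.82 ± 0.27 with lard (limma adjusted p = 0.0420) and -0.64 with fish oil (95% interval -1.21 to -0.07, adjusted p = 0.131). The groups overlapped on both diets. The call with lard ended when any one of 9 mice was left out: lard-fed conventional mouse 1, 2, 3 or 4, or lard-fed germ-free mouse 1, 2, 3, 4 or 5, with changes of -0.60 to -0.85 and adjusted p from 0.0522 to 0.133. With mice 2, 4 and 5 of the lard-fed germ-free group left out it was -0.68 (adjusted p = 0.353). Without lard-fed conventional mice 5 and 6 it was larger, at -1.32 (adjusted p = 5.59e-05), and the difference with fish oil, -0.64, passed in that fit too (adjusted p = 0.0215). The interaction was -0.18 (95% interval -0.98 to 0.62, adjusted p = 0.835).

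Tnip1, a relative of Tnip3 that is made in many cell types, had the opposite order among lard-fed mice. Its lowest, median and highest values were 8.57, 8.89 and 8.97 in conventional mice on lard and 8.30, 8.49 and 8.81 in germ-free mice on lard. With fish oil they were 8.12, 8.23 and 8.47 in conventional and 8.09, 8.33 and 8.49 in germ-free mice. Lard-fed conventional mice lay above both fish oil groups without overlap; mice 5 and 6, the highest of that group for Tnip3, were its lowest for Tnip1, at 8.61 and 8.57. Tnip1 was higher with lard in conventional mice by 0.55 ± 0.09 (1.47-fold, limma adjusted p = 3.22e-05), and in germ-free mice the difference was 0.18 (95% interval 0.00 to 0.36, adjusted p = 0.0884). Among lard-fed mice it was higher in conventional than in germ-free animals, by 0.31 ± 0.09 (adjusted p = 0.0169), and the groups overlapped. Without lard-fed germ-free mouse 2 that difference was 0.27 (adjusted p = 0.0538), and without mice 2, 4 and 5 it was 0.24 (adjusted p = 0.287). With fish oil it was -0.06 (-0.24 to 0.12, adjusted p = 0.712).

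The interaction for Tnip1 was 0.37 ± 0.12 and did not pass (limma adjusted p = 0.0708). It passed when fish oil-fed conventional mouse 1, fish oil-fed germ-free mouse 6, lard-fed conventional mouse 5 or 6, or lard-fed germ-free mouse 3 was left out, at 0.41 to 0.43 (adjusted p from 0.0248 to 0.0478). Without lard-fed conventional mice 5 and 6 together it was 0.48 (adjusted p = 0.0095). After subtraction of the group means, Tnip1 and Tnip3 correlated at -0.31 over the 24 arrays, which share tissue and normalization.

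Tnfaip3, the ubiquitin-editing enzyme, was the one gene of the 9 with a difference by bacterial status that passed on both diets. Its lowest, median and highest values were 7.96, 8.09 and 8.40 in conventional mice on lard and 8.33, 8.47 and 8.63 in germ-free mice on lard. With fish oil they were 7.79, 7.90 and 7.97 in conventional and 8.09, 8.30 and 8.51 in germ-free mice. Germ-free mice were high on each diet: with fish oil the groups did not overlap, and with lard only conventional mouse 6, at 8.40, reached the germ-free range. Tnfaip3 was lower in conventional than in germ-free mice, at -0.36 ± 0.08 with lard (limma adjusted p = 0.0021) and at -0.40 ± 0.08 with fish oil (adjusted p = 0.0012), changes of 0.780-fold and 0.756-fold. The interaction was 0.04 (95% interval -0.17 to 0.26, adjusted p = 0.850). With mice 2, 4 and 5 of the lard-fed germ-free group left out, the difference with lard was -0.34 and no longer passed (adjusted p = 0.0675), and with the liver list mean as a covariate that with fish oil was -0.25 (adjusted p = 0.181).

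Tnfaip3 was also higher with lard than with fish oil, by 0.24 ± 0.08 in conventional mice (1.18-fold, limma adjusted p = 0.0177) and by 0.19 ± 0.08 in germ-free mice (1.14-fold, adjusted p = 0.0387), with overlapping groups. Without lard-fed conventional mouse 6 the first was 0.18 (adjusted p = 0.0608), and without mice 5 and 6 it was 0.17 (adjusted p = 0.122). The second lost its call without lard-fed germ-free mouse 2, 3 or 4 or fish oil-fed germ-free mouse 2, 3 or 4, at 0.15 to 0.19 (adjusted p from 0.0601 to 0.101), and with mice 2, 4 and 5 of the lard-fed group left out together, at 0.17 (adjusted p = 0.177). The means ran in the order lard germ-free, fish oil germ-free, lard conventional, fish oil conventional, and all neighbours overlapped.

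Nfkbia, the inhibitor that holds NF-kappaB in the cytoplasm, was the one gene of the 9 whose mean was highest in fish oil-fed germ-free mice. Its lowest, median and highest values were 9.64, 9.80 and 10.06 in conventional mice on lard and 9.62, 9.77 and 9.999 in germ-free mice on lard. With fish oil they were 9.62, 9.75 and 10.14 in conventional and 10.34, 10.36 and 10.43 in germ-free mice. The fish oil-fed germ-free mice lay above all 18 others and close together, and the other 3 groups overlapped. Lard-fed germ-free mice were lower than fish oil-fed ones, at -0.58 ± 0.08 (0.670-fold, limma adjusted p = 7.88e-06), and fish oil-fed conventional mice were lower than germ-free ones, at -0.56 ± 0.08 (0.680-fold, adjusted p = 0.00019). In conventional mice lard minus fish oil was 0.00 (95% interval -0.17 to 0.18, adjusted p = 0.977), and with lard conventional minus germ-free was 0.02 (-0.15 to 0.20, adjusted p = 0.892). The interaction was 0.58 ± 0.12 (adjusted p = 0.0049), and it was 0.47 (adjusted p = 0.0749) when mice 2, 4 and 5 of the lard-fed germ-free group were left out.

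**Figure D2:**
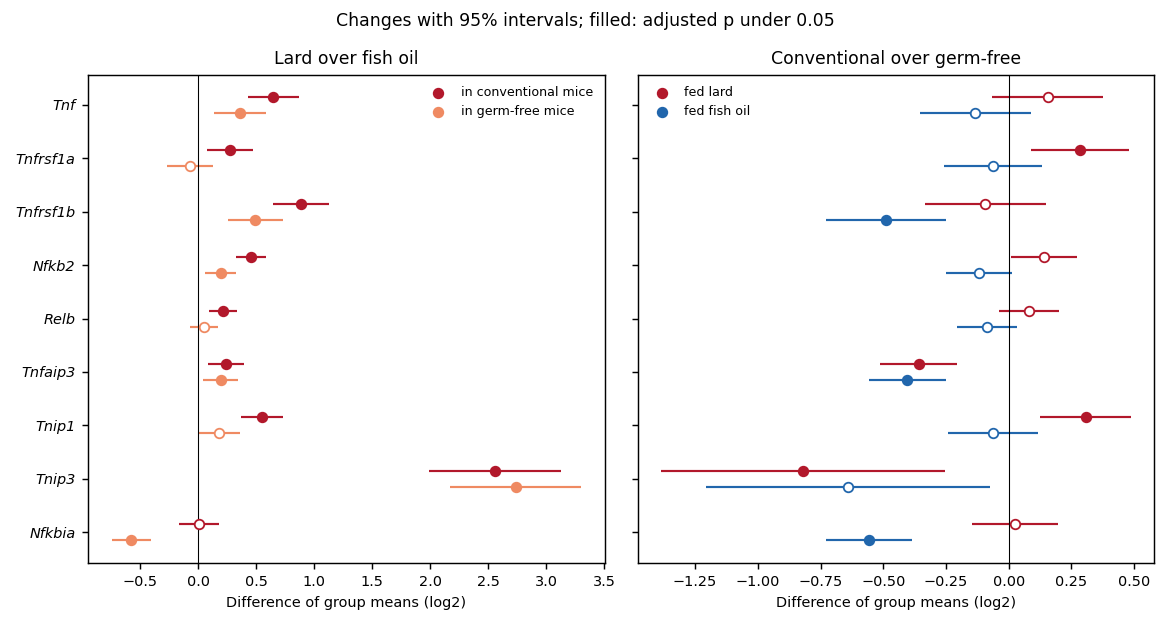
Differences of group means on the log2 scale for the 9 genes, with 95% intervals: lard over fish oil (left panel, by bacterial status) and conventional over germ-free (right panel, by diet). Filled points passed an adjusted p of 0.05; Tnip3 has the largest diet differences, 2.56 and 2.74, and Nfkbia differs by diet in germ-free mice alone, at -0.58.

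Markers of several cell types moved with diet. Of the mature adipocyte markers, 1 of 14 was higher and 10 lower with lard in conventional mice, and 1 higher and 8 lower in germ-free mice. Mesothelial markers were lower, 8 of 10 in conventional and 6 of 10 in germ-free mice, with 0 higher. Adipose progenitor markers were higher, 4 of 9 in conventional and 7 of 9 in germ-free mice, with 0 lower. Of 10 dendritic cell markers, 6 were higher and 1 lower in conventional mice, and 1 higher and 4 lower in germ-free mice. In conventional and germ-free mice the called ones were 78.6% and 64.3% of the adipocyte and 80% and 60% of the mesothelial list. They were 44.4% and 77.8% of the progenitor and 70% and 50% of the dendritic cell list, against 31% and 47.5% of all genes. The dendritic cell share in germ-free mice was thus near that of all genes. The part of these 4 lists in the results was not tested.

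Macrophage markers were higher with lard: 17 of 19 higher and 1 lower in conventional mice, 13 higher and 2 lower in germ-free mice, with list means of 10.28 to 11.19 in conventional and 10.66 to 11.28 in germ-free mice on lard, and 9.55 to 10.24 in conventional and 10.10 to 10.59 in germ-free mice on fish oil. The median change of the list was 1.02 in conventional mice, with its markers at -0.56 to 2.01, and 0.65 in germ-free mice, with its markers at -0.67 to 1.76. With the macrophage list mean as a covariate, which also takes out what moves with it across the diets, 2 of the 8 calls in conventional mice held, Tnip3 at 1.10 ± 0.25 (limma adjusted p = 0.0131) and Tnip1 at 0.60 ± 0.14 (adjusted p = 0.0176). In germ-free mice 2 of the 6 held, Tnip3 at 1.67 ± 0.21 (adjusted p = 1.87e-05) and Nfkbia at -0.54 ± 0.11 (adjusted p = 0.0024). Over all genes the same fit called 882 in conventional mice, against 6178 without the covariate, and 3041 in germ-free mice, against 9468. Some calls were lost though much of the change remained. In conventional mice Tnfrsf1a had 0.22 (adjusted p = 0.483), against 0.27 without the covariate, and Nfkb2 0.33 (adjusted p = 0.0598), against 0.45. Tnf had 0.21 (adjusted p = 0.445) and 0.04 (adjusted p = 0.855) in this fit, and Tnfrsf1b 0.26 (adjusted p = 0.158) and 0.03 (adjusted p = 0.839). By bacterial status with lard, Tnip3 lost its call (-0.38, adjusted p = 0.136) and Tnf gained one (0.29, adjusted p = 0.0312), and the Tnip1 interaction passed (0.38, adjusted p = 0.0470).

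Liver markers, like Nfkbia, were highest in the fish oil-fed germ-free group. In germ-free mice 18 of 19 liver markers were lower with lard and 0 higher. Among fish oil-fed mice 17 were lower and 0 higher in conventional animals. The fish oil-fed germ-free mice had list means of 8.16 to 9.49, against 6.34 to 8.21 in all other mice. Within groups the list mean and Nfkbia did not always go together. Lard-fed germ-free mouse 4 had the highest liver mean of its group, 7.58, and the lowest Nfkbia, 9.62. Fish oil-fed conventional mouse 6 had the highest of its group for both, 8.21 and 10.14. Across fish oil-fed germ-free mice Nfkbia ran only from 10.34 to 10.43. With the liver list mean as a covariate the Nfkbia interaction was 0.57 ± 0.18 (limma adjusted p = 0.0405), the diet difference in germ-free mice -0.57 ± 0.15 (adjusted p = 0.0094) and the status difference with fish oil -0.55 ± 0.14 (adjusted p = 0.0184). The list mean nearly follows the fish oil-fed germ-free group, so this fit rests on the spread within groups. It cannot tell the liver signal and that group apart. With this covariate Tnf, Tnfrsf1b and Nfkb2 lost their diet calls in germ-free mice, at 0.08 (adjusted p = 0.737), 0.20 (adjusted p = 0.427) and -0.022 (adjusted p = 0.878), and Tnfrsf1a gained a call as lower (-0.40, adjusted p = 0.0438). The interactions of Tnfrsf1a (0.70, adjusted p = 0.0127), Tnfrsf1b (0.71, adjusted p = 0.0497) and Nfkb2 (0.50, adjusted p = 0.0103) passed. With lard, Tnip3 lost its call by bacterial status (-0.77, adjusted p = 0.0628).

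**Figure D3:**
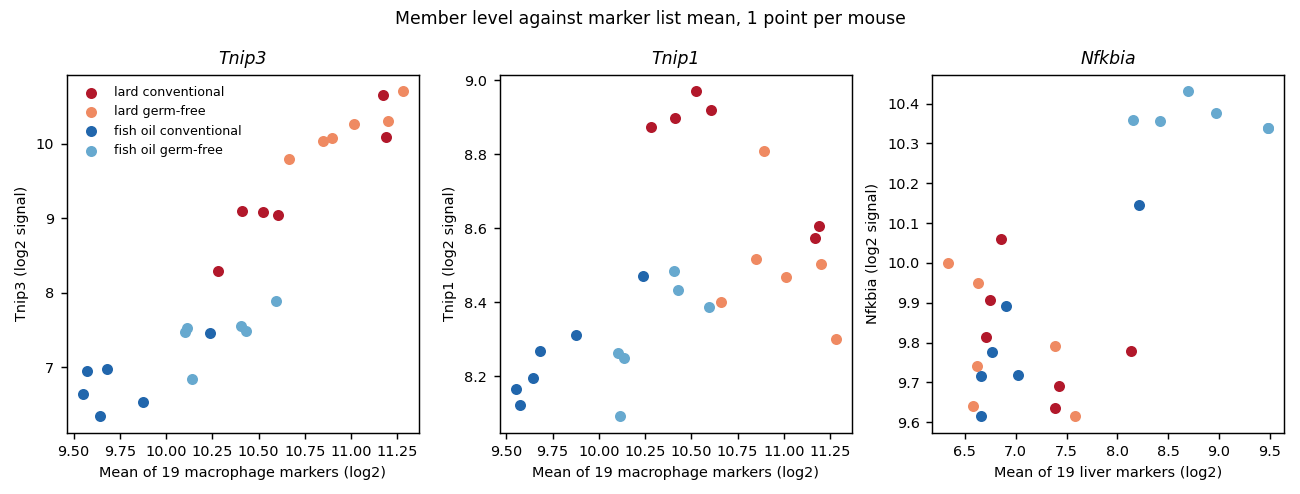
Each point is 1 mouse, coloured by group: Tnip3 and Tnip1 (log2 signal) against the mean of 19 macrophage markers, and Nfkbia against the mean of 19 liver markers. Lard-fed conventional mice 5 and 6 have macrophage means of 11.19 and 11.17 and are the highest of their group for Tnip3 and the lowest of it for Tnip1, and the fish oil-fed germ-free mice lie at 10.34 or above for Nfkbia over liver means of 8.16 to 9.49.

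The wider pathway was read from 6 lists of other genes. Over all genes, 15.4% were higher and 15.6% lower with lard in conventional mice, and 20.4% higher and 27.1% lower in germ-free mice. Among 18 TNF superfamily receptors, 6 were higher and 0 lower with lard in conventional mice, and 4 higher and 7 lower in germ-free mice. The median change of the list was 0.12 and -0.09, against -0.04 and -0.08 over all genes. The largest differences were those of Tnfrsf21, a death receptor (1.17 ± 0.11 in conventional mice, limma adjusted p = 6.4e-08, and 1.24 ± 0.11 in germ-free mice, adjusted p = 3.03e-08), and of Tnfrsf11a, the receptor RANK of osteoclast precursors and macrophages (1.08 ± 0.19, adjusted p = 8.43e-05, and 1.02 ± 0.19, adjusted p = 0.00012). Fas, the receptor of Fas ligand, was lower with lard in germ-free mice, at -0.65 ± 0.14 (adjusted p = 0.00054). Of the 14 ligands and shedding factors measured, 3 were higher and 1 lower in conventional mice, and 3 higher and 5 lower in germ-free mice. These are 28.6% and 57.1% of the list, near the 31% and 47.5% of all genes called. Adam17, the protease that frees TNF from the cell surface, was higher with lard by 0.55 ± 0.14 in conventional (adjusted p = 0.0032) and 0.93 ± 0.14 in germ-free mice (adjusted p = 1.14e-05).

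Of 20 genes of the complexes that form on TNF receptors, 12 were higher and 3 lower with lard in conventional mice, and 12 higher and 2 lower in germ-free mice. The higher ones were 60.0% of the list in either state, against 15.4% and 20.4% of all genes, and the list medians were 0.19 and 0.21. Traf5, an adaptor, was higher by 0.66 ± 0.11 (limma adjusted p = 7.45e-05) and 0.74 ± 0.11 (adjusted p = 1.55e-05) in the 2 bacterial states, and Ripk3, the kinase of necroptosis, by 0.53 ± 0.10 (adjusted p = 0.00018) and 0.65 ± 0.10 (adjusted p = 1.25e-05). Cflar, which blocks caspase activation at the receptor, was lower, at -0.59 ± 0.11 (adjusted p = 0.00026) and -0.92 ± 0.11 (adjusted p = 1.12e-06). Birc3, a ubiquitin ligase of these complexes and a known NF-kappaB target, was higher in conventional mice, by 0.34 ± 0.08 (adjusted p = 0.0014), and in germ-free mice the difference was 0.16 (95% interval -0.01 to 0.32, adjusted p = 0.101).

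Among 13 kinases, NF-kappaB subunits and IkappaB proteins, 7 were higher and 1 lower with lard in conventional mice and 7 higher and 0 lower in germ-free mice. The called ones were 61.5% and 53.8% of the list, against 31% and 47.5% of all genes, so the share in germ-free mice was near that of all genes. The higher ones were 53.8% of the list in either state, against 15.4% and 20.4% of all genes. Ikbke, an IkappaB kinase induced in fat by high-fat feeding, was higher by 0.99 ± 0.13 (limma adjusted p = 5.01e-06) and 0.89 ± 0.13 (adjusted p = 1.2e-05), and Rel, the subunit of lymphoid and myeloid cells, by 0.78 ± 0.13 (adjusted p = 6.57e-05) and 0.82 ± 0.13 (adjusted p = 2.72e-05). Rela, the main partner of canonical NF-kappaB, was higher in conventional mice by 0.16 ± 0.06 (adjusted p = 0.0430), a call that ended in 9 of 24 fits with 1 mouse left out, and in germ-free mice the difference was -0.11 (95% interval -0.23 to 0.01, adjusted p = 0.134). Ikbkb, the main kinase of Nfkbia, differed by 0.14 (-0.01 to 0.29, adjusted p = 0.147) and 0.08 (-0.07 to 0.23, adjusted p = 0.356). Bcl3, a nuclear IkappaB protein, was higher in conventional mice by 0.76 ± 0.14 (adjusted p = 0.00018), and its interaction passed, at 0.77 ± 0.20 (adjusted p = 0.0207), and was 0.59 (adjusted p = 0.212) with mice 2, 4 and 5 of the lard-fed germ-free group left out. That of Map3k14, the kinase that starts the processing of Nfkb2, was 0.26 ± 0.08 (adjusted p = 0.0462), and this call ended in 15 of 24 fits with 1 mouse left out.

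**Figure D4:**
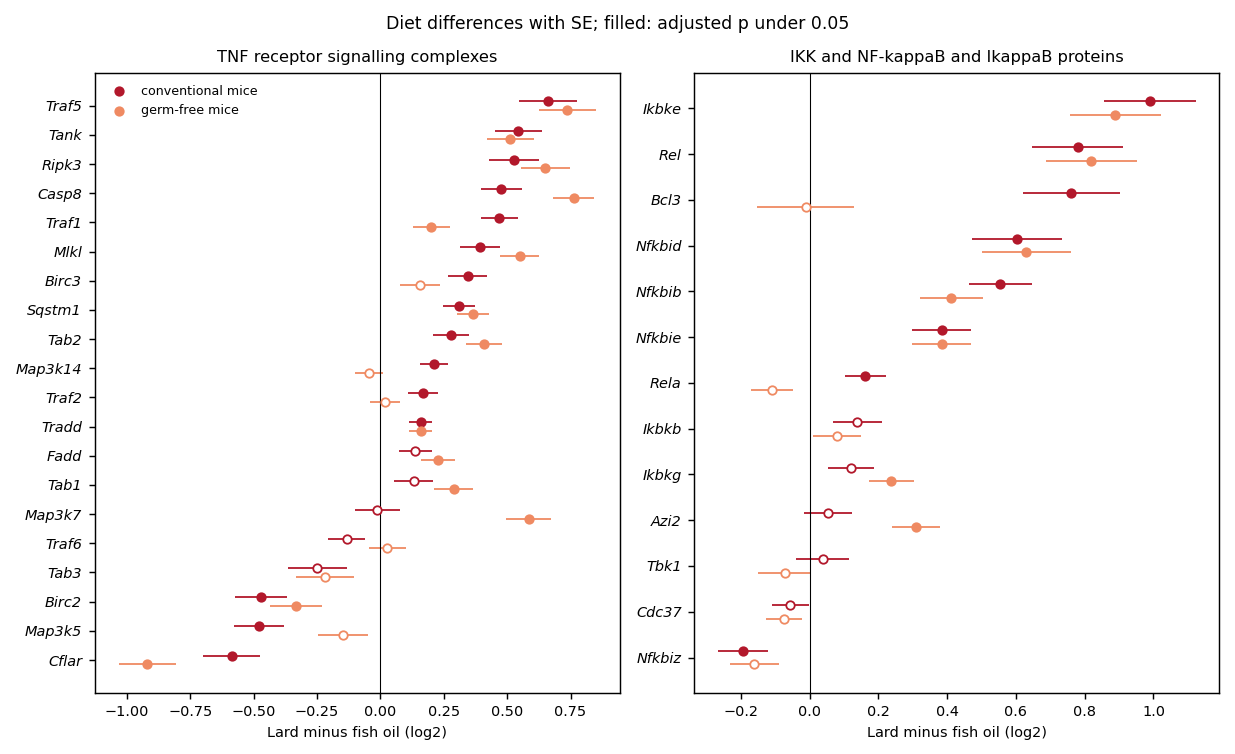
Lard minus fish oil (log2, with SE) in conventional and germ-free mice for 20 genes of the TNF receptor complexes (left) and 13 IkappaB kinases, NF-kappaB subunits and IkappaB proteins (right). Filled points passed an adjusted p of 0.05; Ikbke and Rel lie near 0.8 to 1.0 in both states, Cflar at -0.59 and -0.92, and Bcl3 at 0.76 in conventional mice alone.

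Of the 17 other ubiquitin editors and negative regulators, 4 were higher and 1 lower with lard in conventional mice and 4 higher and 5 lower in germ-free mice, with list medians of -0.02 and 0.10. The called ones were 29.4% and 52.9% of the list, near the shares of all genes. Tnip2, the remaining relative of Tnip1 and Tnip3, was higher with lard by 0.48 ± 0.11 (limma adjusted p = 0.0013) and 0.38 ± 0.11 (adjusted p = 0.0066), so that of the 3 relatives Tnip3 had the largest change in both bacterial states. Cyld, a deubiquitinase that works beside Tnfaip3, differed by -0.08 (95% interval -0.24 to 0.09, adjusted p = 0.517) and 0.13 (-0.03 to 0.30, adjusted p = 0.172). Among 31 other known NF-kappaB targets, 15 were higher and 1 lower with lard in conventional mice, with a median of 0.24, and 8 higher and 7 lower in germ-free mice, with a median of -0.09. In germ-free mice this is 48.4% of the list, near the 47.5% of all genes, and the number lower was 4 to 8 with 1 mouse left out. Il1rn, the interleukin-1 receptor antagonist, was higher in both, by 2.16 ± 0.29 (adjusted p = 4.37e-06) and 1.74 ± 0.29 (adjusted p = 3.82e-05). With median centring of each array, the share of called genes that were higher with lard in germ-free mice was 59.2%, against 43.0% in the values as deposited.

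By bacterial status, 8.77% of all genes were higher and 7.48% lower with lard, and 7.15% and 5.21% with fish oil. Among lard-fed mice, 5 of 31 targets were higher and 0 lower in conventional animals, led by the acute-phase protein Saa3 at 1.94 ± 0.29 (limma adjusted p = 0.00028), and 4 of 18 receptors were higher and 1 lower. With mice 2, 4 and 5 of the germ-free group left out, Saa3 still passed (1.85, adjusted p = 0.0197). The targets Lcn2, Cxcl10 and Ccl5 then did not (adjusted p from 0.105 to 0.303). Nor did the receptors Fas, Tnfrsf14, Tnfrsf4 and, as lower, Tnfrsf21 (adjusted p from 0.0989 to 0.220). With all mice, among the other lists of ligands, complexes, kinases and subunits, and ubiquitin editors, 0, 1, 0 and 1 were higher and 0, 3, 1 and 2 lower. These called genes did not pass without those mice either (adjusted p from 0.0503 to 0.441). Map3k7, the kinase TAK1 that links the receptor complexes to the IkappaB kinase, was among the lower ones, at -0.54 ± 0.09 (adjusted p = 0.00045), and at -0.37 (adjusted p = 0.0503) with mice 2, 4 and 5 of the germ-free group left out. Beside this, 8 of 10 dendritic cell markers were higher in lard-fed conventional mice, and of 19 macrophage markers 1 was higher and 2 lower; the part of the dendritic cell markers was not tested. Among fish oil-fed mice, 2 of 31 targets were lower in conventional animals and 0 higher. This is 6.45% of the list, near the 5.21% of all genes. Of the ligands, receptors, complexes, kinases and subunits, and ubiquitin editors, 1, 2, 0, 0 and 0 were lower and 0, 0, 3, 0 and 1 higher. Of 19 macrophage markers, 10 were lower in conventional animals and 0 higher. A positive interaction passed for 5 of the 31 targets, 16.1% of the list against 2.81% of all genes, and for 2 to 7 with 1 mouse left out. Among them were Saa3 (1.64 ± 0.40, adjusted p = 0.0149), Lcn2 (1.46 ± 0.42, adjusted p = 0.0343) and Cxcl10 (1.27 ± 0.32, adjusted p = 0.0163). With mice 2, 4 and 5 of the lard-fed germ-free group left out these 3 did not pass (adjusted p up to 0.159), and Lcn2 lost its call in 11 of 24 fits with 1 mouse left out.

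After subtraction of the group means, the highest correlations with Tnip3 over the 24 arrays were those of Dock2, a guanine nucleotide exchange factor of blood cells, Ubash3b and Fuca2, each at 0.93. For Tnfrsf1b they were Capg, Cd180 and Ly9, the last a receptor of blood cells, at 0.92 to 0.93. For Tnf they were Proser1 at 0.80, the chemokine Ccl3 at 0.80 and Mef2c at 0.77. Among the 9 genes, Tnfrsf1b went with Tnip3 at 0.76, with Tnf at 0.67 and with Nfkb2 at 0.62, and Tnf with Relb at 0.61, while Nfkbia stayed between -0.13 and 0.41 with the other 8. These are descriptions of arrays that share tissue, diet groups and normalization, and the most alike of 19938 genes are high in part because there are many to choose from.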

How the data were processed

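RNA of epididymal fat from 24 mice was hybridised, 250 ng per mouse, to one-colour Affymetrix arrays, per the labels' protocols. The authors deposited log2 signals, 1 for each probe set and mouse, which were computed with RMA according to the submitters' processing notes. This method subtracts a modelled background, gives all arrays the same distribution by quantile normalization and combines the probes of a set; it compresses low signals, which understates changes of weakly expressed genes. No source used here gives its version or a scan date, and no batch was tested.

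Of 35556 probe sets, 21789 carried 1 gene symbol in the platform annotation, 1621 several and 12146 none; 21698 were updated by Entrez ID in a RefSeq gene table (GRCm38.p6). The probe set with the highest mean was kept per gene, which left 19938 genes. Values lay between 2.19 and 14.59, and 0 pairs of arrays were identical.

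The 4 group means were fitted to all 24 arrays with lmFit and eBayes (limma 3.58.1, R 4.3.3), and 5 contrasts were tested, two-sided, with Benjamini-Hochberg adjustment over the 19938 genes and a threshold of 0.05; every p in the text comes from this fit or a named alternative. The steps were tested on simulated data. Differences are of mean log2 values, with 95% intervals from the fit. Lists were counted, not tested; a list mean is the mean log2 signal of its measured genes in a mouse. The kappaB consensus was searched in 250-base RefSeq windows with python 3.11.15, numpy 2.4.6 and pandas 2.3.3, and figures were drawn with matplotlib 3.10.9.

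The genes, lists, mice to leave out and covariates were chosen with earlier results of these data known. Genes named are the 9 measured ones, in each list up to 4 whose called changes were largest in a comparison, plus Rela, Ikbkb, Map3k14, Birc3, Cyld, Tnip2, Adam17 and Nfkbiz, and the 3 genes that correlate best with each; not all are named. Mice of the same number in different groups were checked for pairing: over 36 pairs, deviations from the group means correlated at -0.50 to 0.35, over 0.1 in 9, so the numbers were not taken as pairs.

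Alternatives were centring arrays on their medians, quantile normalization once more, leaving out genes of mean value under the 40th percentile, averaging a gene's probe sets, array weights, robust eBayes priors with a trend, fitting the compared groups alone, the mouse number as a block, leaving out each mouse, leaving out lard-fed conventional mice 5 and 6 or lard-fed germ-free mice 2, 4 and 5, and the liver or the macrophage list mean as a covariate.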

Additional observations from a re-analysis of the deposited data

Results flagged for a closer look

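Of 36 sets of 6 mice, 1 for each gene and group, 1 held a mouse far from the rest, where chance gives about 1 in 20: Tnfaip3 in lard-fed conventional mouse 6 was 8.40, above 7.96 to 8.11 in mice 1 to 5 of that group. The same mouse had the second highest macrophage list mean of its group, 11.17. Without this mouse, Tnfaip3 was higher with lard in conventional mice by 0.18 (limma adjusted p = 0.0608), against 0.24 with it. With the macrophage list mean as a covariate and all mice this difference was 0.16 (adjusted p = 0.532).

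The effect of bacterial status on Nfkbia differed between the diets by a test of the difference itself, an interaction of 0.58 ± 0.12 (limma adjusted p = 0.0049). Conventional minus germ-free was 0.02 with lard and -0.56 with fish oil. Liver markers moved with it, and it is given with that list as a covariate above.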

How the results depend on the processing

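Of the 9 genes, the number called by diet in conventional mice, 8, was 2 with the macrophage covariate and 6 to 8 with 1 mouse left out. By diet in germ-free mice, 6 was 2 with the macrophage covariate and 5 to 6 with 1 mouse left out. By bacterial status with lard, 4 was 1 when only those groups were fitted, 0 when mice 2, 4 and 5 of the lard-fed germ-free group were left out, and 1 to 4 with 1 mouse left out. With fish oil, 3 was 2 with the macrophage covariate, 4 when lard-fed conventional mice 5 and 6 were left out, and 3 in every fit with 1 mouse left out. With the liver covariate it was 3 too, but Tnfaip3 was lost and Nfkb2 gained. For the interaction, 1 was 3 with array weights, 2 when lard-fed conventional mice 5 and 6 were left out, 0 when lard-fed germ-free mice 2, 4 and 5 were, 4 with the liver covariate, 2 with the macrophage covariate and 1 to 3 with 1 mouse left out. Fits without 3 mice have fewer samples, and over all genes 177 were then called by status with lard, against 3240, and 225 for the interaction, against 1435. In the other fits the calls over all genes moved as well. For the interaction they were 2526 with array weights and 2710 without lard-fed conventional mice 5 and 6. With the liver covariate they were 2139, and with the macrophage covariate 2770. By status with lard, 2199 genes were called when only those groups were fitted. By status with fish oil, 2654 were called with the macrophage covariate and 3106 without lard-fed conventional mice 5 and 6, against 2464.

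Signs turned only in differences that had not passed, with 1 exception. The exception was Nfkb2 by diet in germ-free mice, -0.022 with the liver covariate, which also turned Relb there (-0.094) and the interactions of Tnfaip3 (-0.14) and Tnip3 (0.14). Median centring turned Nfkbia by diet in conventional mice (-0.021), Tnfrsf1a and Tnip1 by status with fish oil (0.0025 and 0.0028) and the Tnfaip3 interaction (-0.043). Repeated quantile normalization turned Nfkbia by diet in conventional mice (-0.014). With mice 2, 4 and 5 of the lard-fed germ-free group left out, Tnfrsf1a by diet in germ-free mice was 0.20 and Nfkbia by status with lard -0.082. With lard-fed conventional mice 5 and 6 left out, the Tnfaip3 interaction was -0.022. The macrophage covariate turned Relb by diet in germ-free mice (-0.053), Tnfrsf1b by status with lard (0.10), and Tnf (0.12) and Tnip3 (0.19) by status with fish oil. With 1 mouse left out, signs turned for Nfkbia by diet in conventional mice (-0.045 to 0.071) and by status with lard (-0.024 to 0.067), and for the interactions of Tnfaip3 (-0.011 to 0.083) and Tnip3 (-0.43 to 0.038). The cause of these changes was not tested.

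The mouse number as a replicate block changed 1 call of the 9 genes, Tnip3 by status with lard (-0.82, adjusted p = 0.0615). Over all genes, median centring gave 2757 higher and 701 lower by status with fish oil, against 1425 and 1039, and 312 higher and 1688 lower for the interaction, against 561 and 874. Each measured gene had 1 probe set, so no other probe set could be tried. Low signals limit what RMA values can show.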
